A study of Oryctolagus cuniculus with 12 samples.

Results

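Solute carriers are membrane proteins that move small molecules and ions across the cell surface or the membranes of organelles, and the 143 genes described here are the members of that superfamily measured in the rabbit basilar artery, the vessel along the brain stem. The members are all genes whose current symbol begins with SLC, other than the SLC22A and SLC15A genes and SLCO1A2, with a probe that the scanner flagged well above background throughout a group of 3 arrays. The array named 250 such genes, 233 of them after these were left out, and 90 of the 233 had no probe that passed, so that 143 remained among 7384 named genes tested. Total RNA was measured on 12 single-colour arrays, 1 per sample. The groups were basilar arteries 3, 5 and 7 days after subarachnoid hemorrhage (bleeding over the surface of the brain) had been produced experimentally, and control arteries labelled normal, which the series counts as day 0, with 3 arrays each. The strain, age and sex of the animals and the way the bleed was made are not given in the sources used here. It is not stated whether each sample came from its own animal, so p-values rest on sample-to-sample spread that may be technical.

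Most solute carriers use a gradient rather than ATP: some exchange one substrate for another, some couple uptake to sodium or protons, and some let their substrate pass down its own gradient. They supply vessel wall cells with sugars, amino acids, vitamins and metals, set cell volume and pH, and load the mitochondria and the Golgi apparatus. Some work only with a partner protein, such as the heavy chain SLC3A2 that carries several amino acid exchangers to the cell surface. By what they carry, the members were 25 amino acid and neurotransmitter carriers, 25 mitochondrial carriers, 20 carriers of sodium, protons, chloride, bicarbonate or phosphate, 19 of carboxylates, bile salts and organic anions, 16 of metals, 15 of nucleosides and nucleotide sugars, 10 of sugars and inositol, 8 of choline, folate and other vitamins, 3 of fatty acids and urea, and 2 others. The grouping goes by family number, and 1 of the others, SLC7A6OS, shares the letters but is not a transporter.

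The 12 arrays had a 75th percentile of signal between 127 and 191 units and no saturated spot. Control replicate 2 stood apart, with 50.1% of its spots and 109 of the 143 members well above background. Elsewhere these were 58.2% to 64.0% of spots and 129 to 142 members. Each slide held 1 array of every group at a fixed position, which therefore cannot be told apart from group, and replicates 1, 2 and 3 are slides 1, 2 and 3. Levels are log2 processed signals minus the log2 75th percentile on that array, and changes are differences of these levels. Levels of different probes were not compared. Of the members, 106 were well above background on all 12 arrays, and 36 passed on the arrays of the days but not on all 3 control arrays, against 0 that passed on the controls only. This contrast rests largely on control replicate 2, with its 109 members, against 139 and 136 on control replicates 1 and 3. The share over all named genes was not counted, so the contrast is not read as a result. The members nearest to the limit included SLC16A4, well above background on 3 arrays of day 5 and on 2 others, and just outside it lay SLC10A5, with 2 arrays on each of the 3 days.

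On day 3, 10 of the 143 members passed the test against the controls, 6 higher and 4 lower. The lower ones were SLC16A12, SLC44A5, SLC5A3 and SLC4A4, and the higher ones SLC51A, SLC46A1, SLC43A2, SLC7A6, SLC7A8 and SLC35A2. The share called, 6.99%, lay near the 6.87% of all named genes called in the same fit (limma, Benjamini-Hochberg adjusted p below 0.05, two-sided), where 4.83% were higher and 2.03% lower. The day 3 change of the members ranged from -2.38 to 1.50 with a median of -0.06, beside a median of -0.0048 over all named genes, and 105 members stayed within 0.5 of no change. At an unadjusted p below 0.05 there were 37 members, beside 21.7% of all named genes. The day 3 arrays lay wholly above the controls for 12% of the members, beside 13.7% of all named genes, and wholly below for 14.8%, beside 11.4%. Without control replicate 2 the count was 7, of which 2 were higher and 5 lower, and it was 4 without day 3 replicate 3. After normexp background correction 1 member was called higher and 5 lower, and of the 6 rises SLC7A8 alone kept its call. The rises other than SLC7A8 were in genes not above background on all 3 control arrays. Those genes entered the test only through the days, and their p rests in part or whole on control values at background. With probes above background on all 12 arrays, 1 member was called higher and 4 lower. In whole tissue, fewer cells of a type and less RNA per cell cannot be told apart.

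**Figure D1:**
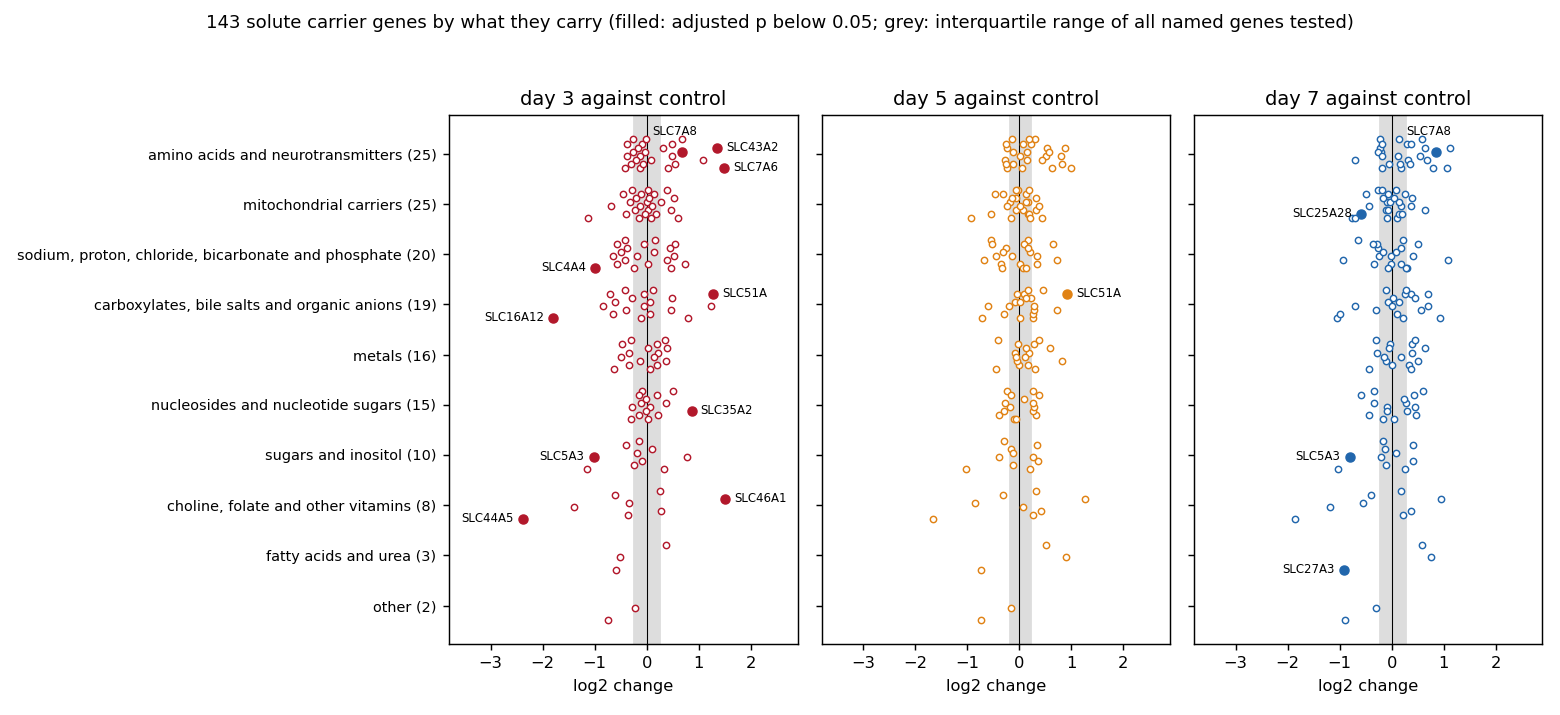
Log2 change of each of the 143 genes against the controls on days 3, 5 and 7, one row per group of carriers with its number of genes. Filled and named points passed an adjusted p of 0.05 (10, 1 and 4 genes), open points did not, and the grey band spans the interquartile range of all named genes tested. Most open points lie in or near the band, and SLC44A5 lies lowest of the called genes on day 3.

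Among the 19 carriers of carboxylates, bile salts and organic anions, 1 fell and 1 rose on day 3. SLC16A12, a carrier of the monocarboxylate family known in humans to move creatine, was at -2.19, -1.52 and -2.07 on day 3, against 0.06, 0.23 and -0.65 in the controls. All 3 day 3 arrays lay below all 3 controls. The level fell by 1.81 (SE 0.31, limma adjusted p = 0.00605), which is 3.5-fold lower, with changes of -2.25, -1.75 and -1.42 on slides 1, 2 and 3. The gene was at -0.59, -0.59 and -1.31 on day 5 and at -1.59, -1.17 and -0.75 on day 7. The day 5 arrays overlapped with the controls and the day 7 arrays did not, and neither day passed the test (-0.71, adjusted p = 0.314, and -1.05, adjusted p = 0.102). The day 7 value passed without control replicate 3 (adjusted p = 0.0365). The day 3 call held without each of the 12 arrays in turn, with a highest adjusted p of 0.029, and its size was -1.0038 after normexp correction.

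SLC16A12 was read by 6 tested probes, and all 6 were called lower on day 3, with changes between -1.95 and -1.63. Since some probes of a gene overlap, the probes are not separate evidence where they share bases, and 3 of the 6 are shown because they read overlapping and separate stretches of the transcript. The probes are printed as the array gives them, from 5′ to 3′, each of 60 bases, and the capitals mark the 40 bases that the first pair shares. The array names no genome build, so no coordinates are given.
SLC16A12 probe whose value is given: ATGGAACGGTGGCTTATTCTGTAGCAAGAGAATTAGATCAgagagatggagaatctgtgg
SLC16A12 overlapping probe: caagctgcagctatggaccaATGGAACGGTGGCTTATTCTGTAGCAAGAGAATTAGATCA
SLC16A12 separate probe: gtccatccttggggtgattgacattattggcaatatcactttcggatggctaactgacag
The overlapping probe changed by -1.79 (adjusted p = 0.00591) and the separate one by -1.84 (adjusted p = 0.00697).

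SLC51A, the alpha subunit of a transporter that carries bile acids and steroids across the cell surface, was at -3.60, -3.47 and -3.16 on day 3, against -4.46, -4.52 and -5.08 in the controls. All day 3 arrays were above the controls, but no control array was well above background, so the fold is a bound. The gene entered the test only through days 3 and 5, where it is high, and its p rests on control values at background. The gene was at least 1.11-fold higher on day 3 (adjusted p = 0.00504), where the bound sets the day 3 mean against the higher, on each control array, of the probe's own signal and the dimmest signal that array holds well above background. Its measured change was 1.27 (SE 0.21), with 0.86, 1.05 and 1.91 on the slides. The call held without each array in turn, with a highest adjusted p of 0.0246, and after normexp correction the change was 0.10 (adjusted p = 0.875). SLC51B, whose product pairs with SLC51A, had no probe that passed the filter. The only tested probe of SLC51A is shown because the call rests on it.
SLC51A probe: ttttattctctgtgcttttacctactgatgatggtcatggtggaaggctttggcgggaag

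On day 5 SLC51A was the only member called, at -3.95, -3.83 and -3.49, against the same controls. The arrays did not overlap with the controls, and the measured change was 0.93 (adjusted p = 0.0471), without a fold because its bound lay under 1. This call was kept when day 3 replicate 3 was omitted and ended with any other omission (adjusted p = 0.0612 to 0.132), and with the slide as a block (0.0657). On day 7 no array was well above background, with levels of -4.07, -3.76 and -4.12. The other 17 carriers of this kind had no call on any day, and 2 of them are given because their changes were the next largest on day 3. SLC47A1, an exporter of organic cations, was at 4.19, 4.16 and 5.35 on day 3, against 3.24, 2.65 and 4.12 in the controls. The day 3 arrays lay above the controls, by 1.23 (adjusted p = 0.0764). SLCO1B3, an organic anion transporter, changed by -0.84 (adjusted p = 0.31). The lactate carriers SLC16A1 and SLC16A7 changed by -0.05 and 0.47 on day 3, and the prostaglandin carrier SLCO2A1, which had a missing spot, by -0.06.

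Among the 8 carriers of choline, folate and other vitamins, 1 fell and 1 rose on day 3. SLC44A5, of the choline transporter-like family, was at -1.31, -2.40 and -2.26 on day 3, against 0.76, 0.24 and 0.18 in the controls. Day 3 and control arrays were clearly apart, and the change was the largest fall of any member. The level fell by 2.38 (SE 0.54, adjusted p = 0.0256), which is 5.20-fold lower, with -2.06, -2.64 and -2.44 on the slides. On day 5 the arrays stood at -2.46, -0.84 and -0.50, and on day 7 at -2.31, -1.59 and -0.48. All of these lay below the controls, but they spread widely and neither day passed (-1.66, adjusted p = 0.168, and -1.85, adjusted p = 0.103). Only 1 probe read the gene, and the day 3 call was lost without either control replicate 1 or 2 (adjusted p = 0.0858 and 0.0556) or without replicate 2 or 3 of day 3 (0.0853 and 0.0974). After normexp correction the day 3 change was -1.43, and that of day 7 passed at -1.11 (adjusted p = 0.0279).
SLC44A5 probe, shown as the only one that reads the largest fall: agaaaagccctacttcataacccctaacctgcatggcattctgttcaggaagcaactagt

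SLC46A1, which takes up folate together with protons and can carry heme, was at -2.30, -2.64 and -1.76 on day 3, against -3.15, -4.76 and -3.29 in the controls. The day 3 arrays were all higher, control replicate 2 was far below the other controls, and 2 of 3 controls were above background. The change was 1.50 (SE 0.37, adjusted p = 0.0368). On the slides it was 0.85, 2.13 and 1.53, and without control replicate 2 it was 0.99. It lost its call without day 3 replicates 1 and 3, control replicate 2, day 5 replicate 2 and day 7 replicates 1, 2 and 3 (adjusted p = 0.0515 to 0.144), and after normexp correction (0.25, adjusted p = 0.588). On days 5 and 7 it was higher than the controls on every array, by 1.27 (adjusted p = 0.126) and 0.94 (adjusted p = 0.22).
SLC46A1 probe, the only one tested: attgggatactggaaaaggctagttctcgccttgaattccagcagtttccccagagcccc

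Of 9 tested genes of folate and one-carbon metabolism outside the superfamily, 2 rose and 1 fell on day 3. FOLR1, a folate receptor, rose by 1.24 on day 3 (adjusted p = 0.0246, and 0.0524 to 0.0962 without each day 3 array), by 1.74 on day 5 (adjusted p = 0.00875) and by 1.75 on day 7 (adjusted p = 0.0091). MTHFD2, a mitochondrial enzyme of folate metabolism, fell by 1.03 on day 3 (adjusted p = 0.0143, and 0.0551 without day 3 replicate 3). SHMT2, a mitochondrial enzyme that moves one-carbon units from serine, rose by 0.97 (adjusted p = 0.0421), a call lost without 9 of the 12 arrays in turn, which leaves control replicate 2, day 3 replicate 1 and day 5 replicate 3 as the exceptions (adjusted p = 0.0556 to 0.162 without the 9). SHMT2 did not pass after normexp correction (adjusted p = 0.0592). FOLR1 is also among the choroid plexus markers below. The choline carriers SLC44A1 and SLC44A3 changed by 0.26 and 0.27 on day 3, and limma called 0 of 4 tested genes of choline and phosphatidylcholine synthesis on any day. SLC5A6, the sodium-dependent carrier of biotin and pantothenate, changed by -0.34, -0.85 and -0.55 on days 3, 5 and 7 (adjusted p = 0.449, 0.11 and 0.256). Its other tested probe, of lower mean, changed by -0.87, -1.60 and -1.63 (adjusted p = 0.109, 0.0183 and 0.0163), so that it passed on days 5 and 7, and the probes differ in their call.

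Among the 10 carriers of sugars and inositol, 1 fell on days 3 and 7. SLC5A3, the sodium-coupled carrier through which cells take up myo-inositol, an osmolyte and a precursor of phosphoinositides, was at -1.56, -1.57 and -1.61 on day 3, against -0.67, -0.73 and -0.29 in the controls. The 3 day 3 arrays lay within 0.05 of each other and all below the controls. The level fell by 1.02 (SE 0.17, adjusted p = 0.00546), which is 2.03-fold lower, with -0.89, -0.85 and -1.32 on the slides. It held its call without each array in turn, with a highest adjusted p of 0.0237, and was -0.56 after normexp correction. On day 7 the arrays stood at -1.47, -1.14 and -1.49, again all below the controls. That fall was 0.81 (SE 0.17, adjusted p = 0.0345) and lost its call without control replicate 1 (0.0745), day 3 replicates 1 and 2 (0.0544 and 0.056), day 5 replicate 2 (0.0574) and day 7 replicates 1 and 3 (0.133 and 0.123), and after normexp correction (-0.36, adjusted p = 0.317). On day 5 the change was -0.38 (adjusted p = 0.333). Both probes of the gene are shown because they share 16 bases, in capitals, and were both called on day 3.
SLC5A3 probe whose value is given: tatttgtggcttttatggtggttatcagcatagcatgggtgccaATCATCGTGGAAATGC
SLC5A3 other probe: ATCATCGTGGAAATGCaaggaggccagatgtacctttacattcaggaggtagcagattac
The other probe changed by -1.13 on day 3 (adjusted p = 0.02) and by -0.81 on day 7 (adjusted p = 0.11).

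The other sugar carriers had no call. SLC2A1, the glucose transporter of the blood-brain barrier and many growing cells, changed by -0.41, 0.34 and 0.42 on days 3, 5 and 7 (adjusted p = 0.498, 0.69 and 0.512). SLC2A4, the insulin-responsive glucose transporter of muscle and fat, changed by 0.10, -0.16 and -0.14. Another tested probe of SLC2A4, of lower mean, changed by -0.165, -0.76 and -1.06 (adjusted p = 0.759, 0.162 and 0.0508). The remaining SLC2A4 probes stayed near the values given, so the probes differ in size on days 5 and 7. SLC5A2, a sodium-coupled glucose carrier best known from the kidney, had larger values of -1.15, -1.03 and -1.03 (adjusted p = 0.147, 0.302 and 0.245), with controls spread over -1.67, -0.35 and -2.35 that overlapped with every day. Of 3 tested genes of organic osmolytes other than the carriers, 0 were called.

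Among the 20 carriers of sodium, protons, chloride, bicarbonate and phosphate, 1 fell on day 3. SLC4A4, the electrogenic sodium bicarbonate cotransporter, which brings bicarbonate into vascular smooth muscle cells, was at -1.05, -0.83 and -0.90 on day 3, against -0.03, -0.26 and 0.48 in the controls. The day 3 arrays were all lower than the controls. The level fell by 0.99 (SE 0.26, adjusted p = 0.0459), which is 1.99-fold lower, with -1.02, -0.57 and -1.39 on the slides. On days 5 and 7 the arrays overlapped with the controls, with changes of -0.34 (adjusted p = 0.634) and -0.06 (adjusted p = 0.93). The day 3 call was lost without control replicates 1 and 3, day 3 replicates 1, 2 and 3, day 5 replicates 1 and 2 and day 7 replicate 3 (adjusted p = 0.0537 to 0.127), with the slide as a block (0.0528) and in the authors' value table (0.051). Of its 5 tested probes, 2 were called on day 3, over changes from -1.03 to -0.51. A called pair and an uncalled probe are shown because the last 2 share the 20 bases in capitals and differ in their call.
SLC4A4 probe whose value is given: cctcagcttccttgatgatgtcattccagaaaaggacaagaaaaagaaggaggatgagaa
SLC4A4 other called probe: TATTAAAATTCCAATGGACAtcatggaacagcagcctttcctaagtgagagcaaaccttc
SLC4A4 uncalled probe: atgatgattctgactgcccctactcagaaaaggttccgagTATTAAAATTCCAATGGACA
The other called probe changed by -0.95 (adjusted p = 0.0332) and the uncalled one by -0.51 (adjusted p = 0.212).

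A pair of other ion carriers known from vascular muscle had no call on day 3. SLC12A2, the sodium-potassium-chloride cotransporter, changed by -0.57 (adjusted p = 0.211) and SLC8A1, the sodium-calcium exchanger, by -0.19 (adjusted p = 0.675). On day 7 the largest values of the group were in opposite directions, in genes named after their values were seen. SLC9A9, a sodium-proton exchanger of endosomes, was at -1.49, -1.60 and -1.33 on day 7, against -2.16, -3.33 and -2.19 in the controls, a change of 1.09 (adjusted p = 0.0647) with 2 of 3 controls above background. SLC4A3, an anion exchanger, was at -1.76, -2.05 and -2.14 on day 7, against -0.83, -0.91 and -1.38 in the controls, a change of -0.94 (adjusted p = 0.0647). Neither overlapped with the controls and neither passed the test. Among genes that regulate carriers or maintain the sodium gradient, ATP1B2, a beta subunit of the sodium pump, fell by 1.44 on day 3 (adjusted p = 0.00094), and its call held without each array in turn.

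Among the 25 amino acid and neurotransmitter carriers, 3 rose and 0 fell on day 3, and 1 rose on day 7. SLC43A2, a sodium-independent carrier of large neutral amino acids, was at -2.55, -2.09 and -1.34 on day 3, against -3.08, -3.64 and -3.31 in the controls. The day 3 arrays spread more than the controls but did not overlap with them, and 2 of 3 controls were above background. The rise was 1.34 (SE 0.27, adjusted p = 0.0135), and within slides it was 0.52, 1.54 and 1.97. It passed without each array in turn, with a highest adjusted p of 0.0464, but not after normexp correction (0.33, adjusted p = 0.392). On day 7 the gene was at -2.22, -2.29 and -2.12, above every control. That change was 1.13 (adjusted p = 0.054) and passed with the slide as a block (0.0398) and without day 3 replicate 1 (0.0318) or 3 (0.0153). The day 5 change, 0.89 (adjusted p = 0.137), passed without day 3 replicate 3 (0.0445).
SLC43A2 probe, the only one tested: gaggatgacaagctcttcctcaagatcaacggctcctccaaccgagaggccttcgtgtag

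SLC7A6 encodes a light chain that exchanges cationic against neutral amino acids when bound to SLC3A2. It was at -2.47, -2.64 and -1.96 on day 3, against -4.41, -4.15 and -2.96 in the controls, of which only replicate 3 was above background. Day 3 and control arrays did not overlap. The rise was 1.48 (SE 0.34, adjusted p = 0.0253), and within slides it was 1.93, 1.51 and 1.005. It was lost without control replicate 1 (0.0875), control replicate 2 (0.0769), day 3 replicate 1 (0.0518) and day 3 replicate 3 (0.106), and after normexp correction (0.38, adjusted p = 0.315). All 6 probes of the gene were called on day 3 and 4 of 6 on each of days 5 and 7, when the probe whose value is given was not (0.9985, adjusted p = 0.18, and 1.07, adjusted p = 0.126). That probe passed on both days without control replicate 3 (adjusted p = 0.0165 and 0.0109). The mean of the 6 probes was called on all 3 days. A pair of probes 1 base apart is shown because their day 3 changes differed, with their 59 shared bases in capitals, beside the 1 probe that lies elsewhere in the transcript.
SLC7A6 probe whose value is given: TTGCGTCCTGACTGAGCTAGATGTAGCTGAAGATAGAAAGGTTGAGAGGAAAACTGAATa
SLC7A6 probe 1 base away: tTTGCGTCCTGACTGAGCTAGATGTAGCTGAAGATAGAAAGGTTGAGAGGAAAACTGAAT
SLC7A6 separate probe: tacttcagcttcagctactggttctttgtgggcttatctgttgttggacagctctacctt
On day 3 the probe 1 base away changed by 2.75 (adjusted p = 0.000144) and the separate one by 1.39 (adjusted p = 0.00114).

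SLC7A8, another light chain of SLC3A2, which exchanges neutral amino acids, was at 2.23, 1.88 and 2.34 on day 3 and at 2.41, 2.34 and 2.23 on day 7, against 1.46, 1.25 and 1.70 in the controls. All arrays of both days lay above all controls, and every array was above background. The rise was 0.68 on day 3 (SE 0.17, adjusted p = 0.0359; 0.77, 0.62 and 0.65 on the slides) and 0.86 on day 7 (SE 0.17, adjusted p = 0.0243; 0.96, 1.08 and 0.54 on the slides), or 1.60-fold and 1.81-fold. Of its 5 probes, which share at least 56 bases with each other, 4 were called on each of these days. The day 3 call was lost without control replicates 1 and 2, day 3 replicates 1 and 3, day 5 replicate 2 and day 7 replicates 1 and 2 (adjusted p = 0.0533 to 0.139), and the day 7 call without control replicates 1 and 2 and each day 7 array (0.0665 to 0.105). Its size after normexp correction was 0.69 on day 3. On day 5 the change was 0.57 (adjusted p = 0.132).

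The heavy chain itself, SLC3A2, changed by -0.17, -0.24 and -0.23 on days 3, 5 and 7 (adjusted p = 0.709, 0.682 and 0.609). SLC7A5, the light chain of many growing cells, changed by -0.31, -0.25 and 0.16, and SLC7A7, a close relative of SLC7A6 known from macrophages and epithelia, by 0.53, 0.82 and 0.35 (adjusted p = 0.215, 0.119 and 0.467). SLC1A5, which exchanges glutamine and other neutral amino acids, was at 2.58, 3.08 and 3.66 on day 3, against 1.9969, 1.59 and 2.47 in the controls. These did not overlap, and the change of 1.09 did not pass (adjusted p = 0.0704). It was the only member whose highest probe had no call on day 3 while its other probe had one, at 1.44 (adjusted p = 0.0184). SLC38A2, which takes up neutral amino acids with sodium and responds to their shortage, changed by -0.26, -0.14 and -0.23. Of 6 tested targets of ATF4, the factor of the amino acid shortage response, 0 rose on any day, and 1, 2 and 1 fell on days 3, 5 and 7. These were MTHFD2 on each day, with -1.03, -1.19 and -1.15 (adjusted p = 0.0143, 0.0136 and 0.0163), and PHGDH, an enzyme of serine synthesis, on day 5 (-1.25, adjusted p = 0.0309). ATF4 itself, DDIT3, ASNS, CHAC1, TRIB3, SESN2, PSPH and NUPR1 had no tested probe, so the response was read only in part. MTHFD2 lost its call on day 5 without day 5 replicate 1 (0.0555) and on day 7 without control replicate 2 (0.0515) and day 7 replicates 2 and 3 (0.0632 and 0.0731). PHGDH lost it without control replicates 1 and 2 and each day 5 array (0.0645 to 0.105). After normexp correction MTHFD2 kept its call on day 3 only (adjusted p = 0.0436, 0.184 and 0.097 on days 3, 5 and 7). PHGDH lost its day 5 call there (0.824).

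**Figure D2:**
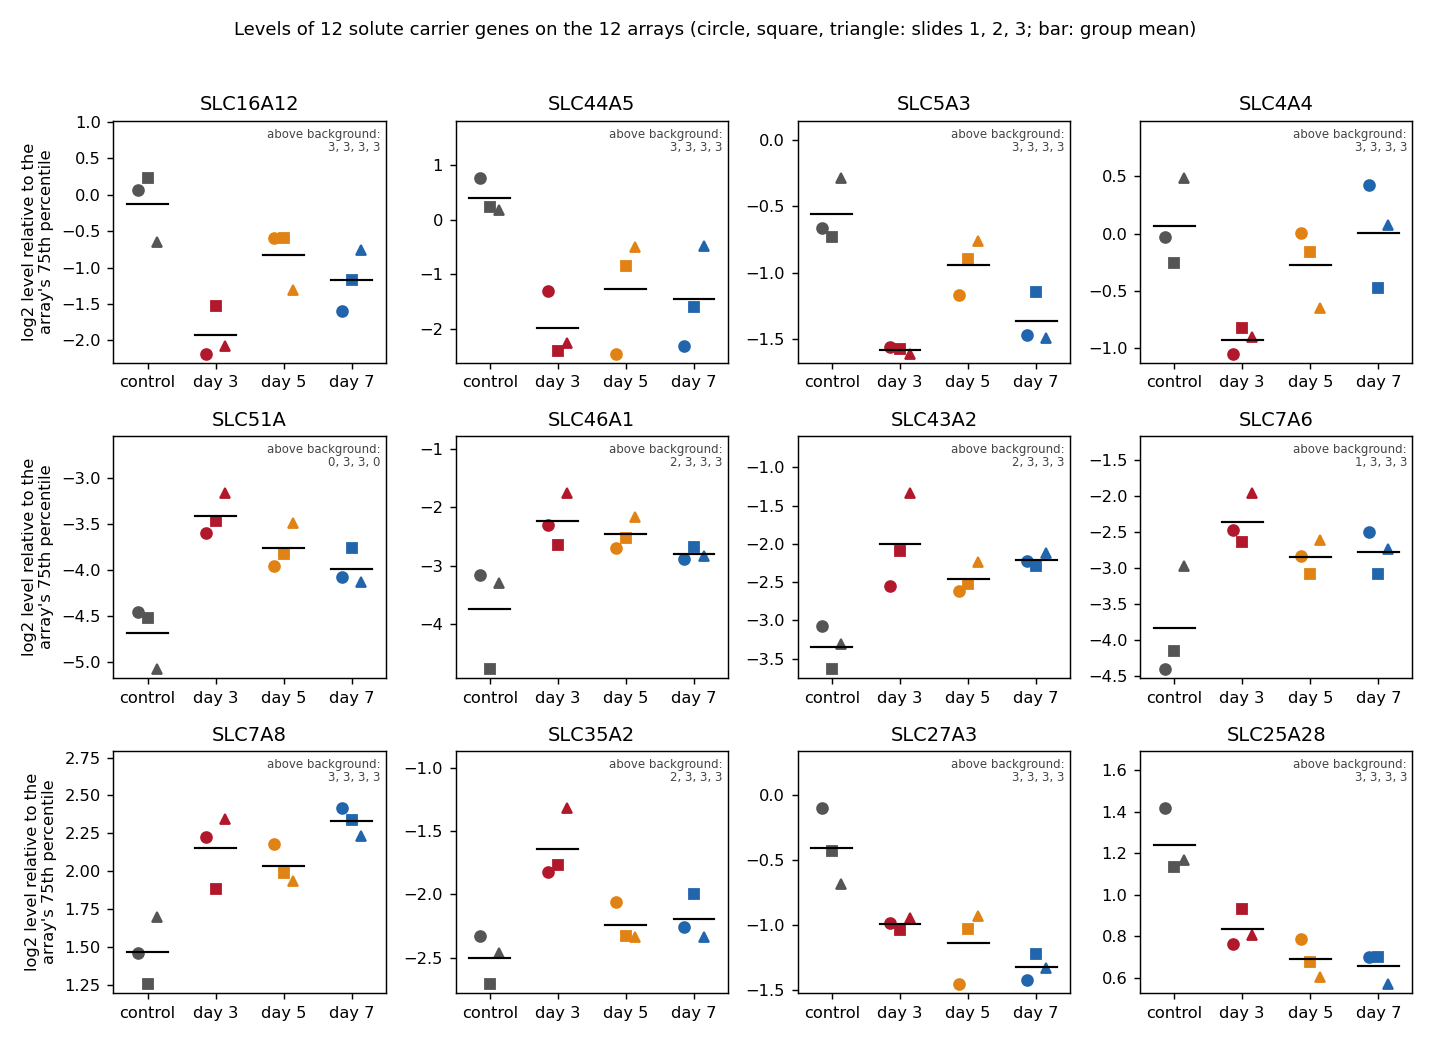
Level of each of the 12 genes called on any day, on every array (log2, minus the 75th percentile on that array), with a bar at the group mean and one symbol per slide. The small numbers give how many of 3 arrays were well above background in the controls and on days 3, 5 and 7. The 4 genes of the top row are lower on all day 3 arrays than on any control, and SLC51A has no control array above background.

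Among the 15 carriers of nucleosides and nucleotide sugars, 1 rose on day 3. SLC35A2, which brings UDP-galactose into the Golgi apparatus for glycan synthesis, was at -1.82, -1.77 and -1.32 on day 3, against -2.33, -2.71 and -2.46 in the controls. All day 3 arrays were higher, and 2 of 3 controls were above background. The rise was 0.86 (SE 0.18, adjusted p = 0.0176), and within slides it was 0.51, 0.94 and 1.14. On days 5 and 7 the arrays overlapped with the controls, with changes of 0.26 (adjusted p = 0.577) and 0.30 (adjusted p = 0.412). The day 3 call did not hold without control replicate 2 (0.0571) or day 3 replicate 3 (0.0715), nor after normexp correction (0.26, adjusted p = 0.525). The other 14 carriers of this group lay on day 3 between SLC35A3, at -0.31, and SLC35F3, at 0.50.
SLC35A2 probe, the only one tested: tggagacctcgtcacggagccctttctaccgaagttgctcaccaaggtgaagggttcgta

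On day 7, 4 of 143 members were called against the controls, SLC7A8 higher and SLC5A3, SLC27A3 and SLC25A28 lower. Their share was 2.8%, beside 2.55% of all named genes, of which 1.98% were higher and 0.569% lower. The count was 0 without control replicate 1 and without replicate 1 or 3 of day 7, 1 without control replicate 2 and day 7 replicate 2, 2 without day 3 replicate 2 and day 5 replicate 2, and 12 without control replicate 3. Normexp correction gave 1 higher and 1 lower call, and the slide as a block 2 and 4. The lower call after normexp was SLC44A5 (limma adjusted p = 0.0279), while SLC5A3, SLC27A3 and SLC25A28 all lost their calls there. At an unadjusted p below 0.05 there were 33 members, beside 19.2% of all named genes. The arrays lay wholly above the controls for 12% of the members and wholly below for 12.7%, beside 12.3% and 10.9% of all named genes. The changes of the members ranged from -1.85 to 1.13 with a median of 0.05, beside 0.03 over all named genes.

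SLC27A3, of the fatty acid transport and activation family, was at -1.42, -1.22 and -1.33 on day 7, against -0.10, -0.43 and -0.69 in the controls. The arrays of each day, not only those of day 7, lay below the controls. The fall on day 7 was 0.92 (SE 0.18, adjusted p = 0.0263), or 1.89-fold, with -1.32, -0.79 and -0.65 on the slides. On days 3 and 5 the changes were -0.58 (adjusted p = 0.0861) and -0.73 (adjusted p = 0.0735), and both passed without control replicate 3 (0.0438 and 0.0379). The day 7 call was lost without control replicate 1 (0.0926), control replicate 2 (0.0697) and day 7 replicates 1, 2 and 3 (0.111, 0.0613 and 0.0847). That call also ended after normexp correction (-0.59, adjusted p = 0.0568). The other members of this group, SLC27A6 and the urea carrier SLC14A1, had no call.
SLC27A3 probe, the only one tested: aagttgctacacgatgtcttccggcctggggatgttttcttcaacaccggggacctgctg

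SLC25A28, which imports iron into mitochondria, was at 0.70, 0.70 and 0.57 on day 7, against 1.42, 1.13 and 1.17 in the controls. The groups did not overlap, and the day 3 and day 5 arrays were below the controls as well. The fall on day 7 was 0.58 (SE 0.13, adjusted p = 0.0496), or 1.50-fold, with -0.72, -0.43 and -0.60 on the slides. Its adjusted p lay just under the threshold, 1 of its 5 probes was called although they share at least 56 bases with each other, and the call outlasted the omission of control replicate 3 or day 5 replicate 3 but of no other array (adjusted p = 0.0622 to 0.162). The day 7 call was also lost after normexp correction (-0.48, adjusted p = 0.106). The changes on days 3 and 5 were -0.41 (adjusted p = 0.103) and -0.55 (adjusted p = 0.0673). The other 24 mitochondrial carriers had no call on any day. SLC25A36, a carrier of pyrimidine nucleotides, had the largest change of them on day 3 at -1.13 (adjusted p = 0.146), with control replicate 2, at 3.19, far above the other controls at 1.45 and 1.17. Its other tested probes changed less on day 3, by -0.41 and -0.39 (adjusted p = 0.308 and 0.265). The abundant carriers of ATP, SLC25A4, and phosphate, SLC25A3, changed by -0.21 and 0.04 on day 3.

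Limma called 0 of 16 metal carriers on any day, with 2, 3 and 2 at an unadjusted p below 0.05 on days 3, 5 and 7, and the pair with the smallest F test p are given as values. SLC39A12, a zinc importer, was at -0.18, 0.17 and 0.06 on day 3, against 0.75, 0.59 and 0.60 in the controls. The groups did not overlap, and the change of -0.63 did not pass (adjusted p = 0.0574) except with the slide as a block (0.0354). SLC39A10, another zinc importer, was at 2.97, 3.05 and 2.48 on day 3, against 3.23, 3.33 and 3.39 in the controls, a change of -0.48 (adjusted p = 0.117). SLC11A2, which takes up iron, changed by 0.21, 0.19 and 0.38 on days 3, 5 and 7, and SLC31A1, which takes up copper, by 0.37, 0.81 and 0.50 (adjusted p = 0.531, 0.217 and 0.408). The 7 members of the SLC30 family of zinc exporters changed by between -0.35 (SLC30A4) and 0.39 (SLC30A2) on day 3, 5 of them above 0, and a further probe of SLC30A4 by -0.95 (adjusted p = 0.0585). Among 4 tested genes of iron and zinc handling outside the superfamily, 2 rose on every day, the ferritin chain FTL and the ferroxidase CP, by 1.68 and 2.88 on day 3 (adjusted p = 0.00136 and 7.74e-05). FTL lost its day 5 call without day 5 replicate 1 or 3 (adjusted p = 0.0803 and 0.074) and after normexp correction (0.0606). TFRC, the transferrin receptor, fell by 1.03 on day 3 (adjusted p = 0.0446), a call that outlasted the omission of day 3 replicate 1 alone. It fell by 1.19 on day 7 (adjusted p = 0.0444), a call lost without 9 of the arrays in turn (0.0527 to 0.136), all but day 3 replicates 1 and 2 and control replicate 3. Neither TFRC call was kept after normexp correction (adjusted p = 0.331 on day 3 and 0.417 on day 7).

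The remaining pair are SLC66A3, a membrane protein, and SLC7A6OS. SLC66A3 was at -0.66, -0.61 and -0.87 on day 3, against 0.45, 0.13 and -0.47 in the controls. The arrays of all 3 days lay below the controls, with changes of -0.75, -0.74 and -0.89 (adjusted p = 0.0581, 0.119 and 0.0548). All 3 passed without control replicate 3 (0.00756, 0.0148 and 0.00711), and those of days 3 and 7 with the slide as a block (0.0491 and 0.0455). SLC7A6OS changed by -0.23, -0.16 and -0.29 (adjusted p = 0.403, 0.682 and 0.317).

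**Figure D3:**
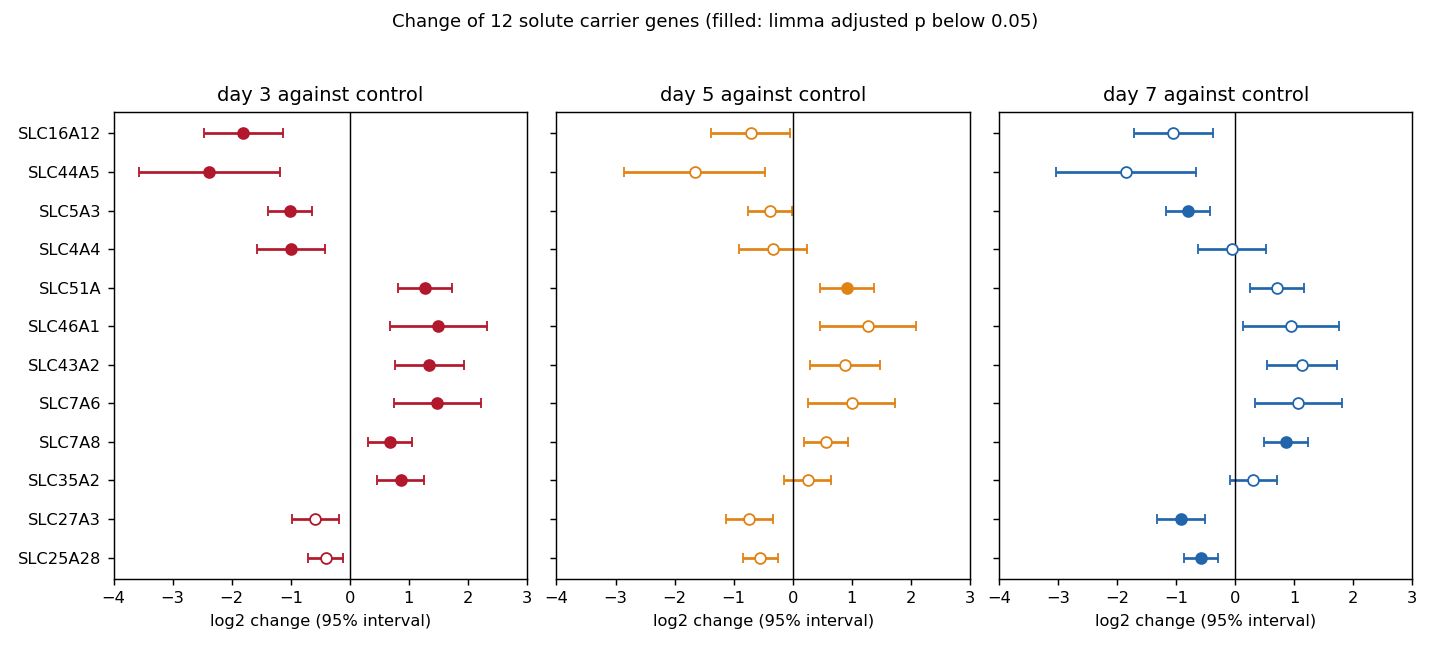
Log2 change of the 12 called genes against the controls on days 3, 5 and 7, with the 95% interval of the limma fit. Filled points passed an adjusted p of 0.05. The signs are the same on all 3 days for each gene, and the intervals of the days overlap. The points of SLC51A are its measured changes, with no control array above background.

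On day 5, 1 of 143 members was called, SLC51A, which is 0.699%, beside 2.13% of all named genes. Without 10 of the 12 arrays in turn the count was 0, and it was 4 without control replicate 3 and 2 without day 3 replicate 3. Normexp correction gave 1 lower call and none higher, and the slide as a block 0. At an unadjusted p below 0.05 there were 23 members, beside 14.7% of all named genes. Of all named genes 1.91% were called higher and 0.217% lower. The arrays lay wholly above the controls for 7.75% of the members and wholly below for 11.3%, beside 10.1% and 6.75% of all named genes. The median change was 0.08, beside 0.02 over all named genes. The F test over the 3 days called SLC16A12, SLC51A and SLC5A3 (adjusted p = 0.0343, 0.0264 and 0.0223), which is 2.1% of the members, beside 3.3% of all named genes. That count was 0 without control replicate 1, 1 without control replicate 2 and day 3 replicate 3, and 6 without control replicate 3.

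Between the days, limma called 0 of 143 members in each of the comparisons of day 5 with day 3, day 7 with day 3 and day 7 with day 5, where 0.0135%, 0.122% and 0% of all named genes were called. At an unadjusted p below 0.05 there were 13, 17 and 2 members, beside 7.58%, 11.8% and 1.72% of all named genes, and other settings gave 0 apart from array weights, with 4 for day 5 against day 3. No difference between the days passed the test for the genes called on day 3. SLC16A12 was higher on day 5 than on day 3 by 1.09 (95% interval 0.42 to 1.77, adjusted p = 0.382) and SLC5A3 by 0.64 (0.26 to 1.01, adjusted p = 0.35), on non-overlapping arrays. SLC4A4 was higher on day 7 than on day 3 by 0.93 (0.36 to 1.51, adjusted p = 0.244), and SLC35A2 was lower by 0.56 (-0.96 to -0.16, adjusted p = 0.308). These comparisons and those with the controls share arrays.

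**Figure D4:**
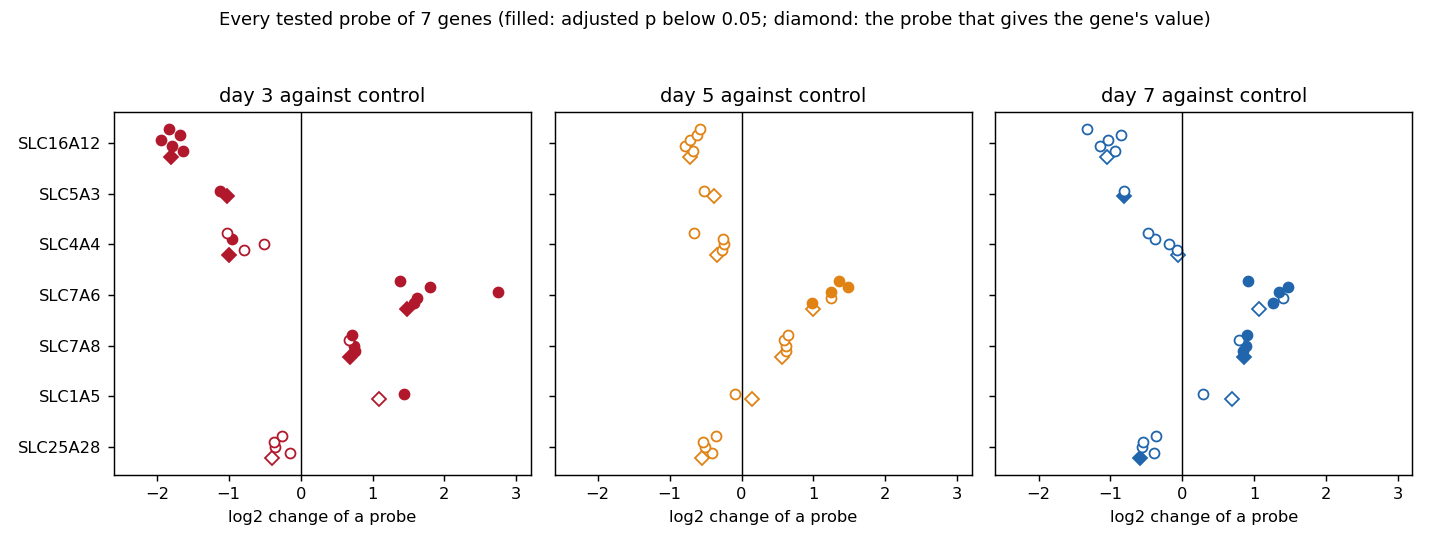
Log2 change of every tested probe of 7 genes against the controls on days 3, 5 and 7, with filled symbols for an adjusted p below 0.05 and a diamond for the probe that gives the gene's value. All 6 probes of SLC16A12 and of SLC7A6 are filled on day 3, 2 of 5 of SLC4A4 are, and 1 of the 2 of SLC1A5 is.

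Of the 143 members, 56 had more than 1 tested probe, and in 43 of these all probes had the same sign on day 3. In 13 of the 56 at least 2 probes shared 50 or more bases, and in 23 no pair shared 12. No member was called in opposite directions by different probes on day 3.

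Markers of several cell types moved with the days, and their part in these results was not tested. Of 6 tested macrophage markers 5 were higher on each day, and their summed level, in units of the 75th percentile of the array, was 20.8 to 25.2 on day 3, against 6.70 to 10.1 in the controls. CD163, CSF1R, C1QB, LYZ, AIF1 and TYROBP had no tested probe. All 6 tested cell cycle genes were higher on day 3 (4.17 to 6.52, against 0.681 to 1.35 in the controls). Of 3 tested neural and glial markers 2 were lower on day 3 (0.723 to 0.923, against 1.59 to 2.03 in the controls), and GFAP, MBP and AQP4 had no tested probe. Of 8 markers of the leptomeninges and fibroblasts 2 were higher and 3 lower on day 3 (632 to 732, against 1030 to 2129 in the controls), and of 5 of the choroid plexus 1 was higher and 1 lower (4.14 to 5.47, against 5.52 to 10.8 in the controls). Of 11 tested genes of contractile smooth muscle, the tissue's main cell type, 1 was lower (815 to 956, against 1154 to 1317 in the controls), and of 7 of the endothelium 1 was lower (74.96 to 84.2, against 61.3 to 80.2 in the controls). A sum follows its brightest genes. The median day 3 change was 0.41 over the leptomeninges and fibroblast markers, although their sum was lower. It was -0.59 over those of the endothelium, where the sums overlapped. The day 3 calls of CD86 (macrophage), RRM2 (cell cycle), SCG5 (neural), KDR (endothelium) and MYL9 (smooth muscle) were lost after normexp correction (limma adjusted p = 0.0634 to 0.541). The macrophage markers MSR1 and CD86 also lost their calls there on day 5 (0.0507 and 0.0912) and day 7 (0.122 and 0.264). The MSR1 call was lost without 4 of the arrays in turn on each of these days. Of 2 tested erythroid genes 0 were called by limma on any day, and their summed level spanned 18.97 to 93.7 in day 3 arteries, 46.4 to 88.8 in those of day 5, and 71.9 to 113 in those of day 7, against 26.4 to 49.4 in control arteries. Of these tests 1 passed an unadjusted 0.05, that of HBA on day 7, with a change of 1.40 (limma, adjusted p = 0.164). CNN1 and CDH5 had no tested probe.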

How the data were processed

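The members and gene lists were chosen with earlier results of these data known. Scanner files of 12 arrays were used; the submitters' processing notes name Feature Extraction 9.5.1.1. The deposited processed signal is a linear intensity that, per the file headers, was background-subtracted and detrended within the array. The deposited flags for spots well above background or outlying are of the kind other, set to 0 or 1. The value table deposited by the authors, an intensity, had the same median, 27.0, in every column and log2 values close to the scanner's (r of at least 0.994); its direction and scale match them, and it was used only as an alternative.

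Control spots were left out, outlier spots set to missing, the 75th percentile of each array subtracted from its log2 signals, and spots of a probe averaged. Probes flagged well above background throughout a group of 3 arrays were tested, 26433 of 43623. They were named from accessions, gene identifiers, symbols and descriptions through RefSeq gene entries, so that 23160 probes had 1 gene, 60 several and 20403 none. Genes now named NHERF are not members. Each gene was read from whichever tested probe had the highest mean. One limma 3.58.1 fit (R 4.3.3) of all 12 arrays without a block gave two-sided tests, adjusted by Benjamini-Hochberg over all tested probes. The fit was tested on simulated data. There it called 37%, 49% and 39% of 2-fold changes on days 3, 5 and 7, and 90%, 88% and 86% of 4-fold changes. Each run changed only a small share of its 26324 probes, in a single group. The share called after adjustment depends on how many probes change, so these rates need not hold in the data. The days were separate random draws, and their differences are not read as a result. A gene without a call may still have changed by 2-fold. The text names 7 marker genes, every called member and, in groups of carriers without a call, the 2 with the smallest F test p. Other genes were named after their values were seen. Across same-slide pairs, deviations from the group means correlated between -0.153 and 0.387, over 0.1 in 10 of 18 pairs. Alternatives were another background correction, normalization, the authors' value table, other filters, the slide as a block, array weights, other probe rules and leaving out each array. The number of arrays limits the precision. Results for some genes are not reported here.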

Additional observations from a re-analysis of the deposited data

Results flagged for a closer look

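For 3 members every slide was lower than its control on day 3 and higher on day 5, which drew attention to them, and 0 of the differences passed limma. They were picked by these same values, and the share of all named genes with this pattern was not counted. SLC27A6, of the fatty acid transport family, changed by -0.49, -0.05 and -1.03 on the slides on day 3 and by 0.18, 0.95 and 1.57 on day 5, a difference of 1.43 between the days (adjusted p = 0.556), with 1 of 3 arrays above background on day 3 and in the controls. Its other probe changed by 0.06 on day 3 and 1.55 on day 5, so that the lower value on day 3 rests on 1 probe. SLCO2B1, an organic anion transporter, changed by -0.55, -0.69 and -0.03 on day 3 and by 0.03, 0.54 and 0.82 on day 5, a difference of 0.89 (adjusted p = 0.613). SLC13A2, a carrier of citrate and other dicarboxylates, changed by -0.26, -0.18 and -0.42 on day 3 and by 0.25, 0.26 and 0.18 on day 5, a difference of 0.52 (adjusted p = 0.577). Its probe is dim, with a mean level of -3.55. The dimmest signal well above background was -3.72 on day 3 replicate 3 and -2.66 on control replicate 2.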

How the results depend on the processing

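Among 48 changes of named genes followed through the alternatives, no change that passed the test turned its sign. Uncalled changes near 0 did, that of SLC4A4 on day 7 (-0.27 to 0.18) and that of SLC39A10 on day 5 (-0.24 to 0.04). Genes named after their values were seen were not followed. The count of members called on day 3, 10, was 6 after normexp correction, 4 without a filter, 5 with probes above background on all 12 arrays and 4 in a fit of the 2 groups alone. It lay between 4 and 14 when each array was left out. The day 5 count, 1, was 0 after quantile normalization, in the authors' value table, without a filter, with the stricter filter, with the slide as a block and in the 2 groups alone, 8 with array weights and 3 with the mean of all probes, and 0 to 4 without single arrays. The day 7 count, 4, was 2 after normexp correction, 0 without a filter, 10 with array weights, 1 in the 2 groups alone, and 0 to 12 without single arrays. The day 5 against day 3 count, 0, was 4 with array weights, and it and those of day 7 against days 3 and 5 were 0 to 0 without single arrays. The F test count, 3, was 0 without a filter, 5 with the slide as a block, 9 with array weights, 6 with the mean of all probes, and 0 to 6 without single arrays. With the slide as a block (the replicate block), the day 3 and day 7 counts were 12 and 6. Leaving out control replicate 2 as well, chosen after seeing the data, gave 9 on day 3, 0 on day 5 and 1 on day 7 and in the F test. The cause of these shifts was not tested. The median changes moved by less than the spread between slides throughout, and without single arrays the day 3 median was -0.09 to 0.0045, that of day 5 -0.02 to 0.15, and that of day 7 -0.02 to 0.12. On day 3, 4 of 10 calls held without each array in turn, on day 7 0 of 4. Control replicate 3 had a low array weight (0.384), as did day 5 replicate 3 (0.327) and control replicate 2 (0.461). Dim probes limit SLC51A, SLC46A1, SLC43A2, SLC7A6 and SLC35A2, which were not above background on all control arrays and so entered the test only through the days.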

Other observations

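Other transport genes outside the superfamily were read from lists chosen with earlier results known, and genes are named because few were called. Of 17 tested ABC transporters, which are driven by ATP, 3 rose on day 3. ABCA6, of the lipid transporter subfamily, rose by 3.49, 3.25 and 3.36 on days 3, 5 and 7 (limma adjusted p = 0.00195, 0.00619 and 0.00578), and its day 3 call held without each array in turn. ABCC3, an exporter of organic anions, rose by 1.32 on day 3 (adjusted p = 0.0319, and up to 0.119 without 1 array), with 1 of 3 controls above background. ABCC4, a related exporter, rose by 0.79 (adjusted p = 0.0281, and up to 0.105 without 1 array). ABCC3 and ABCC4 lost these day 3 calls after normexp correction (adjusted p = 0.499 and 0.149). Of 11 tested subunits of the V-type proton pump, which acidifies lysosomes, 1 rose on day 3, ATP6V1B2, by 0.91 (adjusted p = 0.0153, and 0.0608 without day 3 replicate 3). Its call was also lost after normexp correction (adjusted p = 0.0716). The glutathione list had 5 tested genes, of which 3 rose on day 3, GCLM, GPX1 and NQO1. GCLM, a subunit of glutamate-cysteine ligase, rose by 1.83 (adjusted p = 0.00045). NQO1 is a quinone reductase rather than an enzyme of glutathione metabolism. Its rise of 0.86 (adjusted p = 0.0378) lost its call without 7 of the 12 arrays in turn. The 3 tested aquaporins had no call on any day.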
